A study of Mus musculus with 32 samples.

Results

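The genes described here are the receptors for glucocorticoid stress hormones and a set of genes known to respond to them or to stress: *Nr3c1*, *Nr3c2*, *Fkbp5*, *Tsc22d3*, *Sgk1*, *Cdkn1a*, *Pdk4*, *Zbtb16*, *Hif3a* and *Sult1a1*. These 10 genes were taken by symbol, with earlier results of these data known, from count tables with 23420 gene rows. All 10 were among the 15589 genes that passed the expression filter. RNA was sequenced from striatal punches, pooled over the hemispheres, of 8 C57BL/6J (B6) mice and 8 B6.D2 congenic mice. B6.D2 congenic mice (Line 4a in the study) are heterozygous for a DBA/2J segment of chromosome 11 on a B6 background. The study also reports an allele of the donor strain at a marker on another chromosome, in wild-type and congenic mice alike. Genotypes at that marker are not in the labels, and its part in the values below was not tested. The B6 mice were wild-type littermates, and mice of both genotypes were about 50 days old by the labels and had received no drug. The line is a congenic with a long segment that holds many genes, both sexes were used according to the study's methods, and the labels give neither sex nor home cage. The reads assigned to genes numbered 19032826 to 33748353 in a mouse, and 107 reads or more fell on each of the 10 genes in every mouse. Levels are given as CPM, the reads of a gene scaled to a common library size with TMM factors.

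Glucocorticoids (corticosterone in mice) reach the brain after stress and over the daily cycle and act through a pair of nuclear receptors. The glucocorticoid receptor (*Nr3c1*) and the mineralocorticoid receptor (*Nr3c2*), which binds corticosterone more tightly, wait in the cytoplasm in a complex with heat shock protein 90 and co-chaperones, move into the nucleus when hormone binds, and act on glucocorticoid response elements in DNA. Their targets include *Fkbp5*, whose protein loosens hormone binding and closes a feedback loop, and genes for kinases, transcription regulators and metabolic enzymes that are widely read as signs of hormone action. The study describes the mice as naïve and reports no stressor or hormone treatment for them, so the values are levels in untreated mice. Their hormone levels, time of day and handling at harvest were not known here.

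None of the 10 genes lies on chromosome 11, where the congenic segment is. On mm10 (RefSeq, GRCm38.p6), *Fkbp5* lies on chromosome 17 from 28398753 to 28486149, and *Cdkn1a* on the same chromosome from 29090979 to 29100722. *Sgk1* lies on chromosome 10 from 21882184 to 21999903, *Zbtb16* on chromosome 9 from 48651797 to 48836225, and *Pdk4* on chromosome 6 from 5483351 to 5496278. *Hif3a* and *Sult1a1* are on chromosome 7, from 17030993 to 17062427 and from 126672865 to 126690443. *Tsc22d3* is X-linked, from 140539528 to 140600522.

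The receptors bind a palindrome of inverted arms, and its letters were searched in the promoters of these genes, since members of one regulatory pathway may share them. RefSeq promoters of 300 bases (250 before and 50 after a gene's start, GRCm38.p6) were found for 8 of the 10 genes, 16 promoters in all, and not for *Nr3c1* and *Zbtb16*. The full element searched, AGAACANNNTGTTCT, reads the same on both strands, and it occurred in 3 of 32851 promoters (0.00913%), of which 1 was a promoter of *Sgk1*. A single arm, AGAACA or TGTTCT, which also lies within the full element, occurred in 6233 promoters (19.0%) and in 5 of the 16. Those 5 include more than 1 window of the same gene, *Sgk1*. Of 62 promoters of the other pathway genes described below, 9 held a single arm and 0 the full element. Below, the *Sgk1* promoter is shown because it holds the full element, at 189 to 175 bases before the start, the *Tsc22d3* promoter because it holds a single arm, and the *Fkbp5* promoter because *Fkbp5* is the gene to which the others are compared. They are written 5′ to 3′ on the strand of the gene, with every match in capitals.
Sgk1, chr10:21993640-21993939, plus strand: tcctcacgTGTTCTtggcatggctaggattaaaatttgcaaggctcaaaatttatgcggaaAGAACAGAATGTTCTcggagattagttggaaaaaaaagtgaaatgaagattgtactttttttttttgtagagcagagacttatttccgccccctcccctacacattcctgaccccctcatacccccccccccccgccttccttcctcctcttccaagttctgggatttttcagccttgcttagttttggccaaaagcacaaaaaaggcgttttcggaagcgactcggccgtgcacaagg
Tsc22d3, chrX:140600473-140600772, minus strand: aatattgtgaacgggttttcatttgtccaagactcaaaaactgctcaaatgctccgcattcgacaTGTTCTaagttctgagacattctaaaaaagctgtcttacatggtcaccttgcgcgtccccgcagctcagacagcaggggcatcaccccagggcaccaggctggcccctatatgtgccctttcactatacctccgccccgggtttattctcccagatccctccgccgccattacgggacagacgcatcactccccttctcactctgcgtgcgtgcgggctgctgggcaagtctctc
Fkbp5, chr17:28486100-28486399, minus strand: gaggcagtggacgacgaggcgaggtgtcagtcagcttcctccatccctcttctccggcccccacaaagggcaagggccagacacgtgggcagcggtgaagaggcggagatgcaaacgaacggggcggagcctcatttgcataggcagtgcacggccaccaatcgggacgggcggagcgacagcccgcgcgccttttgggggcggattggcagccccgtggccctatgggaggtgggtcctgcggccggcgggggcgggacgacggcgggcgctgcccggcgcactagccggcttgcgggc
The *Sgk1* window also holds a single arm nearer its 5′ end, and the windows of the other *Sgk1* starts held 1 arm or none. The *Fkbp5* window has no match and 70.7% G and C, against 46.3% in the *Sgk1* window. *Fkbp5* is known from other work for response elements inside its introns, which a promoter window does not cover. These matches describe letters in the reference sequence and are not evidence of binding.

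Reads of 2 libraries fell differently from the rest, and leaving both out was added after seeing the data. The genotype differences and correlations below are given for all 16 mice and for the 14 without these libraries, except values per kilobase and within lanes of all mice. In B6 mouse 8 and B6.D2 congenic mouse 1, 11.3% and 10.2% of reads were aligned outside exons, against 14.5% to 15.9% in the other 14 mice. B6.D2 congenic mouse 1 also had 27.3% of reads with more than 1 alignment, against 19.5% to 21.4% in those 14 mice. In the same mouse, the 4617 genes with at least 5000 bp of exon lay at a median log2 deviation of -0.31 from the other mice of the genotype, and the 2814 genes with under 2000 bp at 0.48. Corresponding medians in the 14 mice were between -0.01 and 0.07 for long genes and between -0.09 and 0.05 for short genes. In B6 mouse 8 they were -0.07 and 0.07, and 19.49% of its reads had more than 1 alignment. Of the 10 genes, 9 were outside the range of the 14 mice in B6.D2 congenic mouse 1 (5 above and 4 below), and 5 in B6 mouse 8 (3 above and 2 below). The part that these library properties play in the values of the 10 genes was not tested.

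Marker genes of striatal projection neurons were strongly represented, with summed levels of 4692 to 6926 CPM in B6 and 5127 to 6625 CPM in B6.D2 congenic mice over 10 genes. Markers of cortical glutamatergic neurons summed to 534 to 866 CPM in B6 and 374 to 757 CPM in B6.D2 congenic mice. All 10 cortical markers had lower fitted levels in congenics, 8 of them at an unadjusted p under 0.05 and none at an FDR under 0.05 (edgeR's quasi-likelihood test), in the 16 and in the 14 mice. Endothelial markers summed to 279 to 418 CPM in B6 and 353 to 416 CPM in congenics, and 9 of 10 had higher fitted levels in congenics, 2 of them at an unadjusted p under 0.05, again in both sets of mice. Mural cell markers (197 to 268 and 239 to 273 CPM), microglial markers (657 to 772 and 717 to 849 CPM), astrocyte markers (6249 to 7074 and 5729 to 6954 CPM) and oligodendrocyte markers (10265 to 14653 and 11350 to 15940 CPM) overlapped between B6 and congenics in their summed levels. All 10 microglial and all 10 oligodendrocyte markers had higher fitted levels in congenics in both sets of mice, with median log2 fold-changes of 0.09 and 0.11 over 16 mice and 0.06 and 0.03 over 14. None of these 20 was at an unadjusted p under 0.05 over 16 mice, and 2 microglial markers were over 14. Of all genes tested, 10% were at that level over 16 mice and 12.8% over 14. The counts of every list in this paragraph are to be read beside that share. Higher fitted levels were also found for 7 of 10 astrocyte markers (1 at an unadjusted p under 0.05 over 16 mice and none over 14) and 7 of 9 mural cell markers (2 and 1). Choroid plexus markers summed to 22.3 to 134 and 32.0 to 174 CPM, with 7 of 8 higher and none at that level. Activity-regulated genes such as *Fos* summed to 267 to 689 CPM in B6 and 226 to 499 CPM in congenics, and all 10 had lower fitted levels in congenics, with a median log2 fold-change of -0.32 (2 at an unadjusted p under 0.05) over 16 mice and -0.29 (none at that level) over 14. Of 10 striatal projection neuron markers, 9 were higher over 16 mice (none at that level) and 10 over 14 (2 at that level). Of 5 red blood cell genes with a row, 4 (the haemoglobin genes *Hba-a1*, *Hba-a2*, *Hbb-b1* and *Hbb-b2*) were at 0 in every mouse, and the list summed to between 1.15 and 3.29 CPM. Only 1 gene of that list was tested, *Hbb-bt* and *Hbb-bs* had no row, and reads with more than 1 alignment were not counted. The sum is therefore no measure of blood in the punches. In bulk tissue, fewer cells of a type and less RNA per cell cannot be told apart, and the part of cell composition in the genotype values below was not tested.

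Per kilobase of exon, the mean levels of the 10 genes over the 16 mice are given from the highest to the lowest. *Tsc22d3* had 16.6 ± 3.56 CPM per kb (SD, n = 16), *Sgk1* 16.2 ± 2.00 and *Nr3c1* 16.0 ± 1.33, and these neighbours did not differ beyond their spread. *Cdkn1a* (7.27 ± 0.947 CPM per kb) and *Fkbp5* (7.01 ± 0.536) followed, with every mouse below the lowest *Nr3c1* value of 12.3. *Nr3c2* (4.50 ± 0.659 CPM per kb), *Sult1a1* (4.08 ± 0.775) and *Pdk4* (3.88 ± 0.442) overlapped among themselves, so the mineralocorticoid receptor was at a lower level per length than the glucocorticoid receptor in each mouse, at most 5.54 CPM per kb. *Sult1a1*, which reached 6.01 CPM per kb, also overlapped *Cdkn1a*, which went down to 5.81. *Zbtb16* (2.03 ± 0.494 CPM per kb) and *Hif3a* (1.26 ± 0.276) were lowest and overlapped, and the lowest *Nr3c2* value of 2.31, in B6.D2 congenic mouse 1, was below the highest *Zbtb16* value of 2.88. Exon lengths are unions of GENCODE exons and may differ from those counted, and 247 bp of *Nr3c2* exon and 61 bp of *Sult1a1* exon overlap a gene on the opposite strand, where reads counted without strand cannot be told apart.

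**Figure D1:**
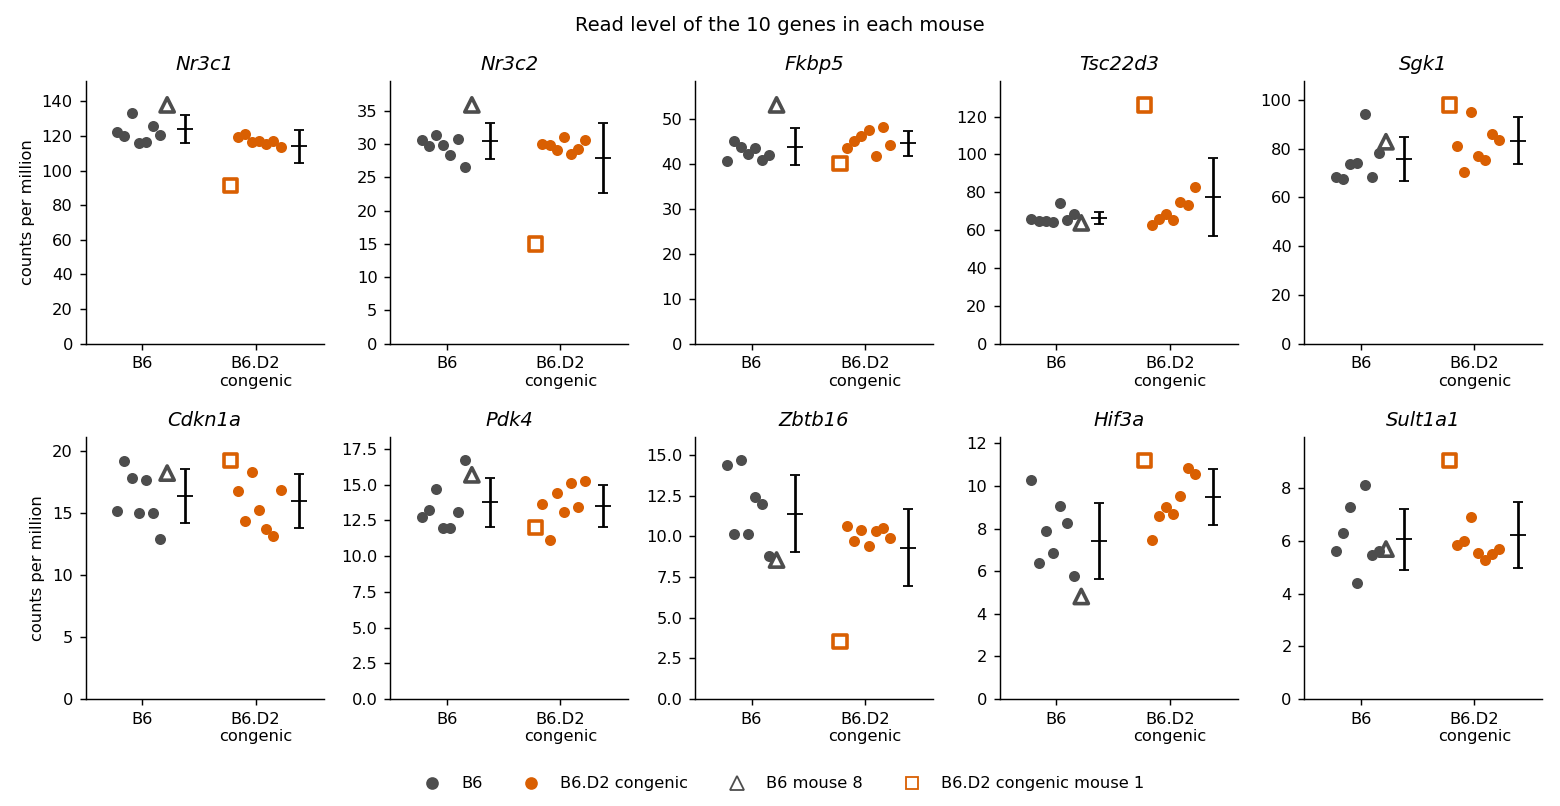
Level of each of the 10 genes in every mouse, in CPM from 0 on a linear axis, for 8 B6 (grey) and 8 B6.D2 congenic mice (orange), with B6 mouse 8 as an open triangle, B6.D2 congenic mouse 1 as an open square, and the mean and SD of each genotype in black. *Nr3c2* shows the open square at 14.96 CPM, while the other mice lie between 26.6 and 35.9 CPM.

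Whether the chromosome 11 segment goes with different levels of these genes in untreated mice was asked by comparing genotypes. No gene of the 10 differed between genotypes at an FDR under 0.05, where the table as a whole had 1 of 15589 genes (0.00641%). At an unadjusted p under 0.05 there were 2 of the 10 genes, *Hif3a* with a higher level in B6.D2 congenic mice and *Nr3c1* with a lower one, beside 1559 of all genes (10%). The fitted log2 fold-change was positive for 5 genes and negative for 5, with a median of 0.0013, and the median of all genes was 0.01. Without B6 mouse 8 and B6.D2 congenic mouse 1, 3 of the 10 genes were at an unadjusted p under 0.05 (*Fkbp5*, *Zbtb16* and *Hif3a*), beside 1990 of 15601 genes (12.8%), and again none at an FDR under 0.05. Folds are B6.D2 congenic minus B6, from edgeR's quasi-likelihood test with Benjamini-Hochberg FDR over all genes tested, and each gene was also compared with an exact two-sided permutation test of log2 CPM, whose smallest possible p is 0.000155.

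Among the receptors, *Nr3c1* (chromosome 18, 39410545 to 39519421) ranged from 116 to 138 CPM in B6 mice (median 122) and from 91.3 to 121 CPM in congenics (median 117). All 8 congenics were below the B6 median and 3 were below every B6 mouse, but the groups overlapped. Means were 124 ± 7.94 and 114 ± 9.44 CPM (SD, n = 8 each), a log2 fold-change of -0.12 (SE 0.06, p = 0.039, FDR 0.476, exact p = 0.0168). Without the 2 libraries the log2 fold-change was -0.06 (SE 0.03, p = 0.0617, FDR 0.415, exact p = 0.0629), and the unadjusted p was no longer under 0.05. With 1 mouse left out it was -0.08 (SE 0.04) without B6.D2 congenic mouse 1. It was -0.10 (SE 0.05) without B6 mouse 8 and -0.11 (SE 0.06) without B6 mouse 3. Within lane pairs it was -0.13 for the mice of lanes 5 and 6 and -0.12 for those of lanes 7 and 8 (4 mice per genotype in each).

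*Nr3c2* (chromosome 8, 76898083 to 77245012) ranged from 26.6 to 35.9 CPM in B6 mice (median 30.2) and from 14.96 to 31.0 CPM in congenics (median 29.6). The values overlapped throughout apart from a single low congenic, mouse 1. The log2 fold-change of -0.12 (SE 0.11, p = 0.282, FDR 0.707, exact p = 0.327) became 0.0033 (SE 0.04, p = 0.934) without the 2 libraries. In the 14 mice the SD of log2 *Nr3c2* within genotype was 0.07, against 0.26 with all 16, and the SD of *Nr3c1* was 0.05, with 18.9% and 8.66% of all genes below them. The median SD of all genes in these mice was 0.11.

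*Fkbp5* ranged from 40.6 to 53.2 CPM in B6 mice (median 42.9) and from 40.2 to 48.3 CPM in congenics (median 44.7). The highest value belonged to B6 mouse 8 and the lowest to B6.D2 congenic mouse 1, so both ends of the range were set by the libraries that stand apart. With all mice the log2 fold-change was 0.02 (SE 0.06, p = 0.665, FDR 0.897, exact p = 0.63). In the 14 mice B6 values ran from 40.6 to 45.1 CPM and congenic values from 41.8 to 48.3 CPM, and the log2 fold-change was 0.09 (SE 0.04, p = 0.0334, FDR 0.356, exact p = 0.0262).

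*Tsc22d3*, which encodes the anti-inflammatory leucine zipper protein GILZ, ranged from 63.8 to 74.1 CPM in B6 mice (median 65.05) and from 62.6 to 126 CPM in congenics (median 70.9). The highest value was that of B6.D2 congenic mouse 1, and the next highest congenic was at 83.0 CPM. The log2 fold-change was 0.22 (SE 0.11, p = 0.0636, FDR 0.521, exact p = 0.0915) with all mice and 0.08 (SE 0.05, p = 0.174) without the 2 libraries. *Sgk1*, which encodes a kinase that regulates ion channels and transporters, ranged from 67.7 to 94.2 CPM in B6 mice (median 73.8) and from 70.3 to 97.9 CPM in congenics (median 82.2). Its groups overlapped, although 7 of 8 congenics were above the B6 median. The log2 fold-change of *Sgk1* was 0.14 (SE 0.08, p = 0.0972, FDR 0.564, exact p = 0.122), with 0.12 (SE 0.07, p = 0.126) in the 14 mice, 0.28 (SE 0.11) in lanes 5 and 6 and -0.01 (SE 0.09) in lanes 7 and 8.

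*Zbtb16*, which encodes a zinc finger transcription repressor, ranged from 8.55 to 14.7 CPM in B6 mice (median 11.1) and from 3.54 to 10.6 CPM in congenics (median 10.1). All 8 congenics were below the B6 median, and the B6 mice were more widely spread than the other 7 congenics, which lay between 9.40 and 10.6 CPM. The log2 fold-change was -0.30 (SE 0.17, p = 0.107, FDR 0.579, exact p = 0.116) with all mice and -0.23 (SE 0.09, p = 0.0255, FDR 0.333, exact p = 0.0868) in the 14 mice. Within lane pairs it was -0.53 (SE 0.30) for lanes 5 and 6, which include B6.D2 congenic mouse 1, and -0.06 (SE 0.13) for lanes 7 and 8.

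*Hif3a*, which encodes a hypoxia-inducible factor subunit, ranged from 4.81 to 10.3 CPM in B6 mice (median 7.37) and from 7.44 to 11.2 CPM in congenics (median 9.27). All 8 congenics were above the B6 median and 3 were above every B6 mouse. Means were 7.41 ± 1.798 and 9.48 ± 1.30 CPM (SD, n = 8 each), a 1.28-fold difference with a log2 fold-change of 0.35 (SE 0.13, p = 0.015, FDR 0.421, exact p = 0.0199). In the 14 mice the log2 fold-change was 0.24 (SE 0.11, p = 0.0487, FDR 0.389), and the exact test gave p = 0.0705. It was 0.21 (SE 0.18) within lanes 5 and 6 and 0.50 (SE 0.18) within lanes 7 and 8.

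*Cdkn1a*, *Pdk4* and *Sult1a1* had fitted differences smaller than their SE. *Cdkn1a*, which encodes the cell cycle inhibitor p21, ranged from 12.9 to 19.2 CPM in B6 mice and from 13.1 to 19.2 CPM in congenics (log2 fold-change -0.04, SE 0.09, p = 0.676, and -0.06, SE 0.09, p = 0.469 in the 14 mice). *Pdk4*, which encodes a kinase that slows the oxidation of glucose, ranged from 11.95 to 16.7 CPM in B6 mice and from 11.1 to 15.2 CPM in congenics (log2 fold-change -0.02, SE 0.08, p = 0.79). *Sult1a1*, which encodes a sulfotransferase for phenols, ranged from 4.40 to 8.14 CPM in B6 mice and from 5.27 to 9.06 CPM in congenics (log2 fold-change 0.04, SE 0.13, p = 0.746). The signs of the *Pdk4* and *Sult1a1* differences turned without the 2 libraries, to 0.03 (SE 0.08) and -0.07 (SE 0.11).

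**Figure D2:**
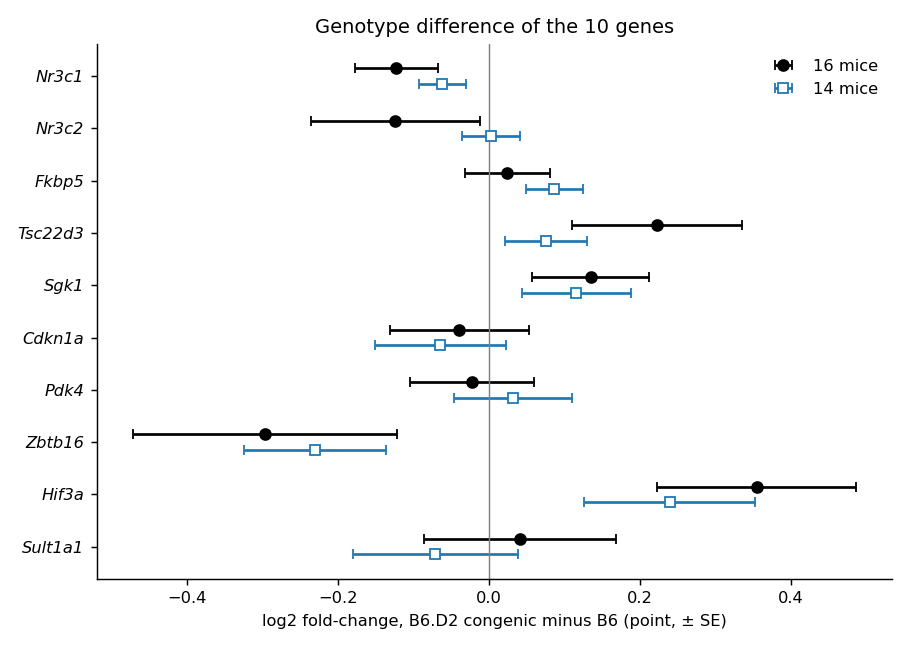
Fitted log2 fold-change of each gene, B6.D2 congenic minus B6, with its SE, for all 16 mice (filled circles) and for the 14 mice without B6 mouse 8 and B6.D2 congenic mouse 1 (open squares). *Hif3a* is farthest to the right at 0.35 and 0.24, *Zbtb16* farthest to the left at -0.30 and -0.23, and *Nr3c2* moves from -0.12 to 0.0033.

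Sequencing lanes are the only batch that the labels give, with mice 1 to 4 of each genotype on lanes 5 and 6 and mice 5 to 8 on lanes 7 and 8. Between lane pairs, none of the 10 genes was at an unadjusted p under 0.05, beside 352 of all genes (2.26%). Without the 2 libraries 1 of the 10, *Tsc22d3*, was at that level, beside 913 genes (5.85%), with no gene at an FDR under 0.05 in either fit.

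The question of whether these genes vary together from mouse to mouse, as genes under a shared hormonal signal may, was addressed with Pearson correlations (r) of log2 CPM after the genotype means were removed. Over the 16 mice, 9 of the 45 pairs had r of 0.5 or more (20%), beside 14.5% of all pairs of genes tested, and 5 had r of -0.5 or less (11.1%), beside 14.2%. Without the 2 libraries, 5 pairs had r of 0.5 or more (11.1%, beside 7.05% of all pairs) and none had r of -0.5 or less (beside 6.91%). The pairs at 0.5 or more in both sets of mice were 3, namely *Cdkn1a* with *Sult1a1*, *Sgk1* with *Sult1a1*, and *Nr3c2* with *Zbtb16*. That is 3 of the 9 pairs in 16 mice and 3 of the 5 pairs in 14 mice. Among the 28 pairs of the 8 responsive genes alone, without the receptors, the median r was 0.10 over 16 mice and 0.17 over 14, and 4 pairs were at 0.5 or more in each. Permutation p-values below permute mice within genotype (100000 permutations, two-sided) and are not adjusted for the 45 pairs.

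**Figure D3:**
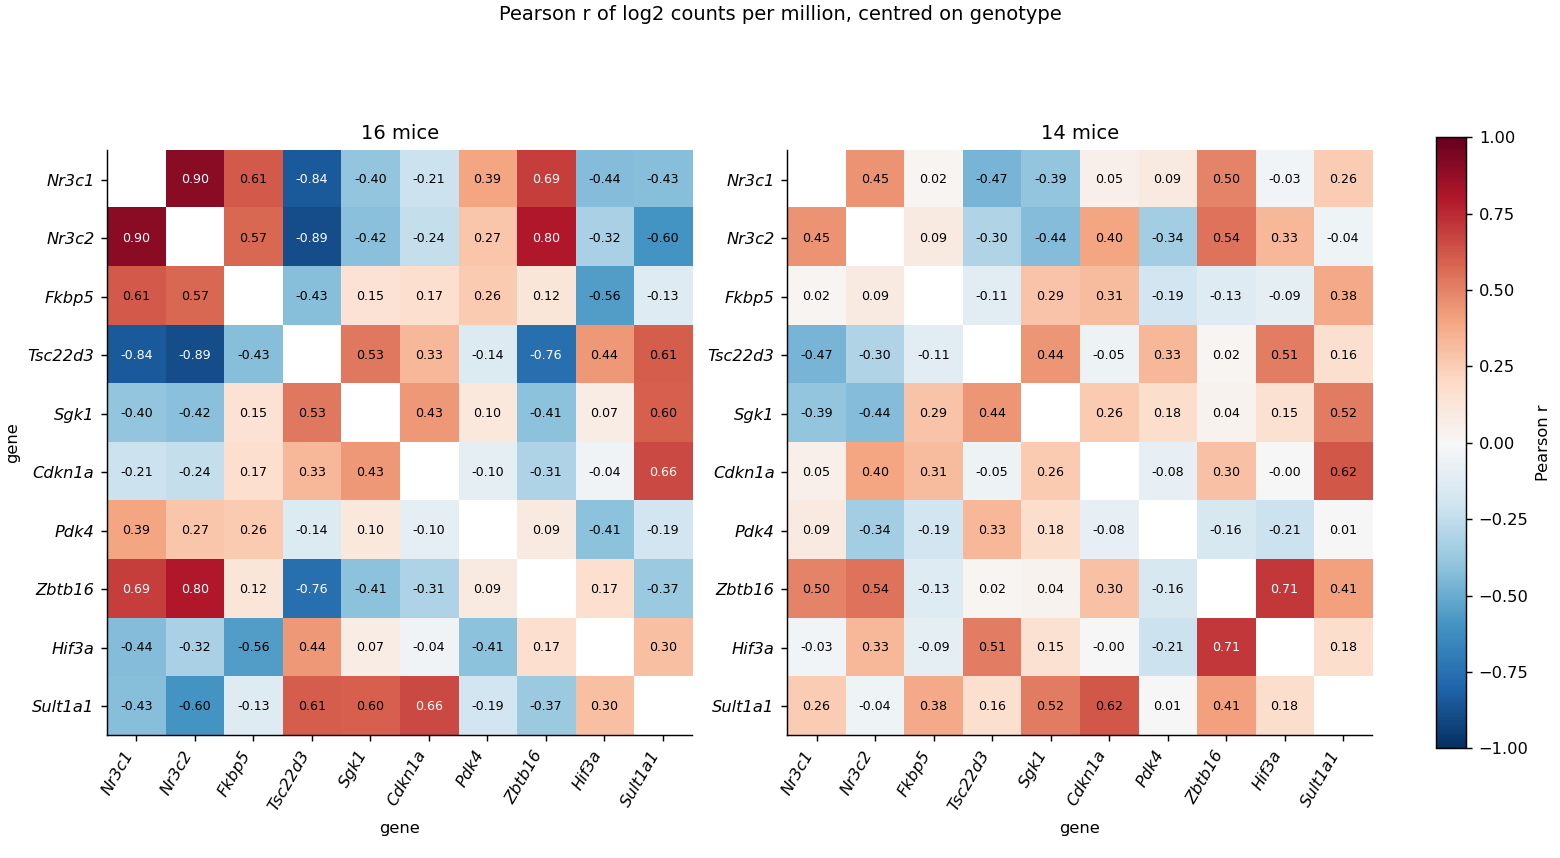
Pearson r of log2 CPM, centred on genotype, for each pair of the 10 genes over all 16 mice (left) and over the 14 mice without B6 mouse 8 and B6.D2 congenic mouse 1 (right), on a colour scale from -1 to 1. The darkest cells on the left, such as *Nr3c2* with *Tsc22d3* at -0.89, are paler on the right, where *Zbtb16* with *Hif3a* at 0.71 is the highest.

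The receptors had the highest correlation of the 45 over 16 mice, though not over 14. Over 16 mice *Nr3c1* and *Nr3c2* had r = 0.90 (permutation p = 0.00121) and Spearman's rho = 0.81 (permutation p = 0.00073). The 2 mice farthest from the median of *Nr3c1* were B6 mouse 8 at 138 CPM and B6.D2 congenic mouse 1 at 91.3 CPM, which were also the highest and the lowest for *Nr3c2*. Without both of them r was 0.45 (permutation p = 0.209), while leaving out each mouse alone gave 0.72 to 0.92. Within the lane pairs of the 14 mice r was 0.90 (n = 7) and 0.40 (n = 7). The part of those mice in the correlation was not tested.

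*Tsc22d3* ran opposite to both receptors in the full set. With *Nr3c1* it had r = -0.84 (permutation p = 0.00035) and rho = -0.66 (permutation p = 0.00304) over 16 mice, and r = -0.47 (permutation p = 0.033) and rho = -0.46 (permutation p = 0.0744) over 14. With *Nr3c2* it had r = -0.89 (permutation p = 0.00761) and rho = -0.65 (permutation p = 0.00656) over 16 mice, and r = -0.30 (permutation p = 0.21) over 14. For both pairs the 2 mice farthest from the receptor's median were the libraries left out of the 14. *Zbtb16* had r = 0.80 with *Nr3c2*, 0.69 with *Nr3c1* and -0.76 with *Tsc22d3* over 16 mice, with permutation p of 0.0736, 0.0671 and 0.0833. With the lowest *Zbtb16* value, that of B6.D2 congenic mouse 1, left out alone, these became -0.08, -0.02 and 0.09. With B6 mouse 8 left out as well, they were 0.54 (permutation p = 0.129), 0.50 (permutation p = 0.192) and 0.02 (permutation p = 0.94) over 14 mice.

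*Fkbp5* is the gene most often read as a sign of glucocorticoid action. Over 16 mice its r with the other 9 genes ranged from -0.56 to 0.61, and over 14 mice from -0.19 to 0.38. The highest value was with *Nr3c1*, r = 0.61 (permutation p = 0.00983) and rho = 0.59 (permutation p = 0.019) over 16 mice, and r = 0.02 (permutation p = 0.957) over 14. With *Nr3c2*, r was 0.57 (permutation p = 0.00571) over 16 mice and 0.09 (permutation p = 0.754) over 14. With *Hif3a*, r was -0.56 (permutation p = 0.0394) over 16 mice and -0.09 (permutation p = 0.755) over 14. With *Tsc22d3*, r was -0.43 (permutation p = 0.0433) and rho -0.60 (permutation p = 0.0174) over 16 mice, and r was -0.11 (permutation p = 0.747) over 14. When the 2 mice farthest from the *Fkbp5* median were left out (B6 mouse 8 and B6.D2 congenic mouse 7), r was 0.52 with *Nr3c1* and 0.60 with *Nr3c2*, B6.D2 congenic mouse 1 being still included.

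In edgeR's quasi-likelihood test of the slope of each gene on *Fkbp5*, with genotype in the model, *Nr3c1* (FDR 0.192), *Nr3c2* (FDR 0.203), *Hif3a* (FDR 0.203) and *Tsc22d3* (FDR 0.296) were at an unadjusted p under 0.05. That is 4 of 9 genes, beside 2627 of 15588 genes (16.9%), and *Nr3c1* and *Nr3c2* had positive slopes while *Tsc22d3* and *Hif3a* had negative ones. None of the 9 was at an FDR under 0.05, beside 30 of all genes (0.192%). In the 14 mice none of the 9 was at an unadjusted p under 0.05, beside 738 genes (4.73%), and no gene of the table was at an FDR under 0.05. In the order of these 15588 genes by r with *Fkbp5* over 16 mice, from the highest, *Nr3c1* was at rank 570 and *Nr3c2* at 810. *Pdk4* was at rank 3561, *Cdkn1a* at 4661, *Sgk1* at 4915, *Zbtb16* at 5210, *Sult1a1* at 9096, *Tsc22d3* at 13211 and *Hif3a* at 14398. Over 14 mice the ranks of *Nr3c1* and *Nr3c2* were 7507 and 6215. Those of the other genes, as listed, were 11148, 2515, 2910, 10068, 1663, 9793 and 9364.

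The genes whose pattern was most like that of *Fkbp5* over 16 mice were ordered by r. *Evl*, which encodes an actin regulator, had the highest r at 0.89, followed by *Ppp1r9b* (0.87), which encodes the dendritic spine protein spinophilin, and *Rab15* (0.86). *Ddn* (0.86), *Pptc7* (0.85), *Map3k10* (0.85), *Cplx2* (0.84), *Pdpk1* (0.84), *Rnf168* (0.84) and *Orai2* (0.83) completed the 10 highest. *Pdpk1* encodes the kinase that activates the protein product of *Sgk1*. The 3 lowest were *Myzap* at -0.89, *Glt8d1* at -0.88 and *Gm4532* at -0.88. Over 14 mice the r of the 10 highest ranged from 0.48 for *Pptc7* to 0.64 for *Evl*, and the 5 most similar genes in those mice, led by *Ints8* at 0.86, were others.

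Other pairs behaved differently when the 2 libraries were left out. *Cdkn1a* and *Sult1a1* had r = 0.66 (permutation p = 0.00571) and rho = 0.74 (permutation p = 0.00189) over 16 mice, and r = 0.62 (permutation p = 0.0256) and rho = 0.75 (permutation p = 0.0045) over 14. Without the 2 mice farthest from the median of *Cdkn1a* r was 0.72 (permutation p = 0.00467), and within the lane pairs of the 14 mice it was 0.69 and 0.72 (n = 7 each). *Zbtb16* and *Hif3a* had r = 0.17 (permutation p = 0.484) over 16 mice, in which B6.D2 congenic mouse 1 held the lowest *Zbtb16* and the highest *Hif3a* level. Over 14 mice their r was 0.71 (permutation p = 0.02) and rho 0.65 (permutation p = 0.0388), and within lane pairs r was 0.72 and 0.94 (n = 7 each). *Tsc22d3* and *Hif3a* had r = 0.44 (permutation p = 0.00926) and rho = 0.64 (permutation p = 0.00348) over 16 mice, and r = 0.51 (permutation p = 0.0355) and rho = 0.64 (permutation p = 0.0103) over 14. *Sgk1* and *Sult1a1* had r = 0.60 (permutation p = 0.0186) but rho = 0.30 (permutation p = 0.278) over 16 mice, r = 0.52 (permutation p = 0.0853) and rho = 0.23 (permutation p = 0.457) over 14, and r = 0.38 (permutation p = 0.269) without the 2 mice with the most extreme *Sgk1* levels.

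**Figure D4:**
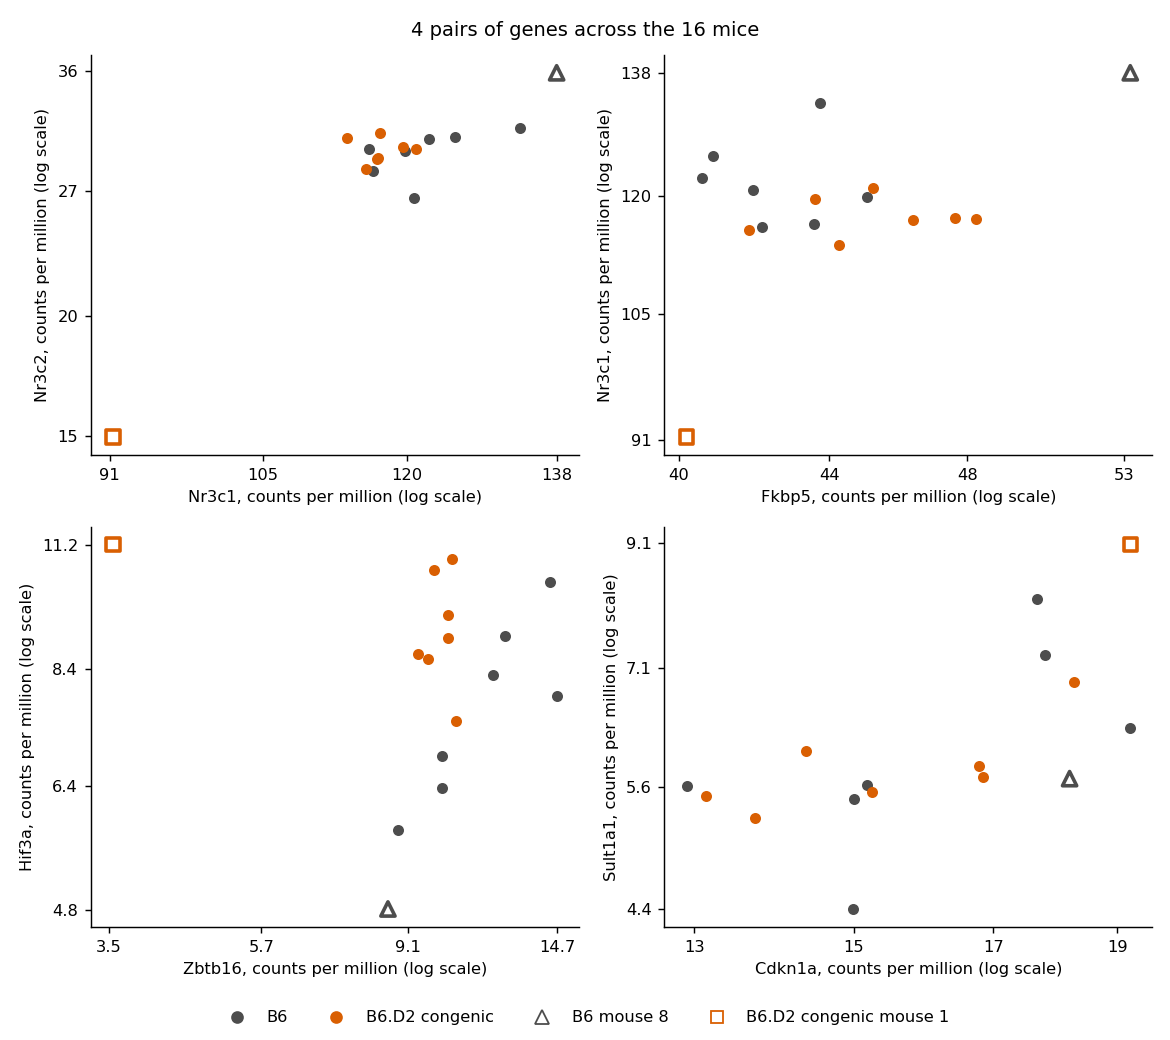
4 pairs of genes in the 16 mice, in CPM on log axes, with B6 mice in grey, B6.D2 congenic mice in orange, B6 mouse 8 as an open triangle and B6.D2 congenic mouse 1 as an open square. In the upper panels the open symbols lie at opposite corners, and in the panel of *Zbtb16* and *Hif3a* the open square lies apart from the rest at 3.54 and 11.2 CPM.

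Other genes of the pathway showed few genotype differences. Of 73 genes on 5 lists, 63 passed the filter, and 4 of these (6.35%) were at an unadjusted p under 0.05, beside 10% of all genes, with none at an FDR under 0.05. Over the 14 mice there were 7 (11.1%), beside 12.8%, and with B6.D2 congenic mouse 1 alone left out 10 (15.9%), beside 13.4%, where the order of the shares turned. Of 24 other glucocorticoid-induced genes tested, 17 had higher and 7 lower fitted levels in congenics, with a median log2 fold-change of 0.05, and 2 were at an unadjusted p under 0.05. In the 14 mice the list had 14 higher and 10 lower, with a median of 0.02. *Tgm2*, which encodes transglutaminase 2 (chromosome 2, 158116405 to 158146392), ranged from 12.8 to 17.9 CPM in B6 mice (median 15.8) and from 17.3 to 23.0 CPM in congenics (median 19.1). All 8 congenics were above the B6 median, with a small overlap of the ranges. The log2 fold-change of *Tgm2* was 0.34 (SE 0.08, p = 0.000489, FDR 0.331, exact p = 0.000932), and it was 0.31 (p = 0.00108, FDR 0.225) in the 14 mice, 0.36 within lanes 5 and 6 and 0.32 within lanes 7 and 8. *Plin4*, which encodes a lipid droplet coat protein (chromosome 17, 56100587 to 56109948), ranged from 1.59 to 3.04 CPM in B6 mice and from 1.35 to 4.29 CPM in congenics. The log2 fold-change of *Plin4* was 0.48 (SE 0.19, p = 0.0241, FDR 0.447, exact p = 0.0782), and 0.59 (p = 0.00144, FDR 0.225) in the 14 mice.

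Of the 12 receptor chaperones, such as the heat shock protein 90 genes, 5 had higher and 7 lower fitted levels, with a median log2 fold-change of -0.02 and a range from -0.09 to 0.05, and none was at an unadjusted p under 0.05. Over 14 mice 2 were higher and 10 lower, with a median of -0.05, and the phosphatase gene *Ppp5c* was at that level (log2 fold-change -0.07, p = 0.046, FDR 0.386). Of 12 receptor coregulators, 4 were higher and 8 lower over 16 mice (median -0.03), with none at an unadjusted p under 0.05, while over 14 mice 9 were higher and 3 lower (median 0.02), with *Nrip1* (log2 fold-change -0.15, p = 0.0187, FDR 0.316) and *Med1* (0.06, p = 0.0456, FDR 0.385) at that level. In all 8 congenics *Ppp5c*, *Nrip1* and *Ncor1*, which encodes a corepressor, were below the B6 median, and *Hdac3* was above it in 7. Over 16 mice their exact p was 0.039, 0.00715, 0.0388 and 0.0393. Their p in the quasi-likelihood test was 0.0801, 0.151, 0.104 and 0.05005. Over 14 mice that test gave p = 0.113 for *Ncor1* and p = 0.191 for *Hdac3*. These genes were named after their values were seen, and the share of all genes at such an exact p was not computed. Of 8 steroid handling genes tested, 6 were higher and 2 lower (median 0.03) over 16 mice and 3 higher and 5 lower (median -0.02) over 14, with none at that level in either, and *Hsd11b2*, *Cyp11b1*, *Serpina6* and *Srd5a2* were below the filter. Of the 7 genes tested of corticotropin-releasing hormone (CRH) and peptide stress signalling, 3 were higher and 4 lower (median -0.11), and 2 were at an unadjusted p under 0.05. Over 14 mice 1 was higher and 6 lower (median -0.10), with 2 at that level. *Crhbp*, whose protein binds CRH and limits its action (chromosome 13, 95431376 to 95444831), ranged from 5.20 to 8.41 CPM in B6 mice (median 7.26) and from 4.39 to 6.59 CPM in congenics (median 5.09). All 8 congenics were below the B6 median. The log2 fold-change of *Crhbp* was -0.43 (SE 0.11, p = 0.00119, FDR 0.331, exact p = 0.00389), and it was -0.45 (p = 0.000505, FDR 0.225) in the 14 mice, -0.30 within lanes 5 and 6 and -0.57 within lanes 7 and 8. *Adcyap1*, which encodes the peptide PACAP (chromosome 17, 93198245 to 93206541), ranged from 2.43 to 6.27 CPM in B6 mice and from 1.12 to 4.27 CPM in congenics. The log2 fold-change of *Adcyap1* was -0.67 (SE 0.26, p = 0.0173, FDR 0.429, exact p = 0.0297), and -0.81 (p = 0.00577, FDR 0.265) in the 14 mice. The cortical markers, which had a median log2 fold-change of -0.56, lay in the same direction as *Crhbp* and *Adcyap1*, and their part in these values was not tested.

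**Figure D5:**
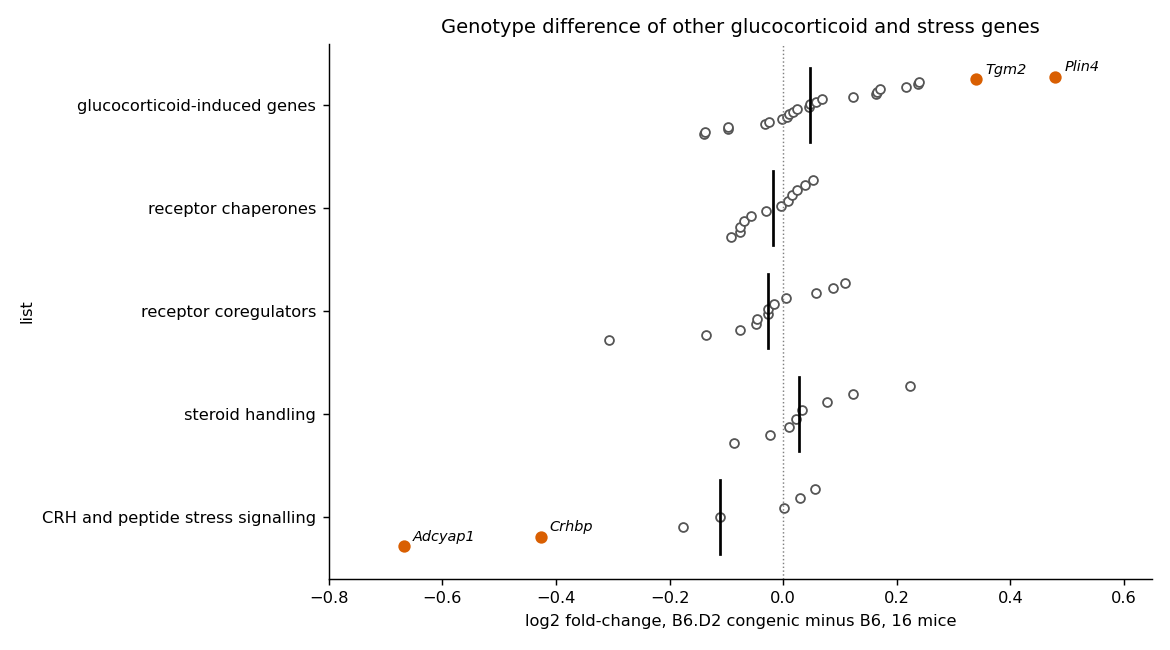
Fitted log2 fold-change, B6.D2 congenic minus B6 over 16 mice, of each tested gene of the 5 lists, with filled orange points for genes at an unadjusted p under 0.05 and a black bar at the median of each list. *Plin4* (0.48) and *Tgm2* (0.34) lie farthest to the right and *Adcyap1* (-0.67) and *Crhbp* (-0.43) farthest to the left.

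In the slope on *Fkbp5*, 8 of the 63 pathway genes (12.7%) were at an unadjusted p under 0.05 over 16 mice, beside 16.9% of all genes, and 1 (1.59%) over 14 mice, beside 4.73%. No pathway gene was at an FDR under 0.05 in these fits. With B6.D2 congenic mouse 1 alone left out, and B6 mouse 8 kept, 14 pathway genes (22.2%) were at an unadjusted p under 0.05. The share of all genes was 30.5%. In that fit 7 of the 63 were at an FDR under 0.05, beside 1973 of all 15623 genes. Over all 16 mice, 2 of the 63 were at an FDR under 0.05 with DESeq2, beside 575 of all 15588 genes. With the likelihood ratio test it was 1, beside 304 of all genes.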

How the data were processed

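Striatal RNA of 8 B6 and 8 B6.D2 congenic mice was measured by mRNA sequencing. According to the authors' scripts and the submitters' processing notes, reads were aligned with TopHat2 2.0.0 and bowtie2 2.2.2 to mm10 and counted per gene with HTSeq 0.6.1p1 in union mode, without strand although the kit was stranded. The authors deposited raw counts per gene, mouse and lane, in which multiply aligned reads and reads shared by the exons of several genes are not counted. HTSeq's 5 summary totals, which name no gene, were left out of library sizes and tests. Reads outside exons made up 10.2% to 15.9% of a library's reads, and reads with more than 1 alignment 19.5% to 27.3%. The authors' tables of their own comparison (fold changes, p-values and FDR) were not used.

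Lane files of a mouse agreed within sampling noise (chi-square per degree of freedom 0.997 to 1.05 in 15 mice) and were summed. For B6 mouse 7 only lane 8 was used here, giving 31 files. Mice were grouped by genotype from the labels. In edgeR 4.0.16 (R 4.3.3), low genes were removed by filterByExpr, TMM factors were applied and quasi-likelihood F tests were run, with Benjamini-Hochberg FDR over all genes. SE is the log2 fold-change divided by the square root of F. log2 CPM used a prior count of 0.5. The study's home cage covariate is not in the labels and was not fitted. Exact tests enumerated all 12870 splits of the mice, or 3432 for 14 mice. The common biological coefficient of variation was 13.0%, and counting error adds to it for the least counted genes. The fits were tested on simulated data. Other settings tried were normalization by RLE or upper quartile, no or a stricter filter, DESeq2 1.42.0, the likelihood ratio test, the second lane alone, lane pair as a covariate or apart, a block for mouse number, and leaving out each mouse. Leaving out B6 mouse 8 and B6.D2 congenic mouse 1 together was added after seeing the data, from the share of reads outside exons. Exon lengths are GENCODE vM1 (mm9), by symbol, for 14628 genes.

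The 10 genes and the lists were chosen with earlier results of these data known. Besides the 10, pathway genes were named at an unadjusted genotype p under 0.05 (up to 5 per list with the smallest p), and the 10 genes with the highest and 3 with the lowest r with *Fkbp5*. *Ints8*, *Ppp5c*, *Nrip1*, *Med1*, *Ncor1* and *Hdac3* were named after their values were seen. Markers were described by list.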

Additional observations from a re-analysis of the deposited data

Results flagged for a closer look

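For the 10 genes, the 4 named pathway genes and 2 library measures, the highest and the lowest of the 8 mice of each genotype were compared with the rest (gap to the nearest mouse over the range, against Dixon's critical value at 95%). Chance gives a gap past it in about 1 of 20 groups, and 10 of the 32 groups had one.

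In B6.D2 congenic mouse 1, *Nr3c2* was 14.96 CPM, against 28.5 to 31.0 CPM in the other 7 congenics (ratio 0.839), *Nr3c1* was 91.3 CPM against 114 to 121 CPM (ratio 0.747), and *Zbtb16* was 3.54 CPM against 9.40 to 10.6 CPM (ratio 0.828). The same mouse was highest for *Tsc22d3*, at 126 CPM against 62.6 to 83.0 CPM (ratio 0.678), and for *Sult1a1*, at 9.06 CPM against 5.27 to 6.90 CPM (ratio 0.57). It also had the lowest share of reads outside exons of its group, 10.2% against 14.5% to 15.6% (ratio 0.803), and the highest share of reads with more than 1 alignment, 27.3% against 20.4% to 21.1% (ratio 0.902). B6 mouse 8 had the highest *Fkbp5* level of its group, 53.2 CPM against 40.6 to 45.1 CPM (ratio 0.646), and the lowest share of reads outside exons, 11.3% against 14.8% to 15.9% (ratio 0.761). B6 mouse 5 had the highest *Tsc22d3* level of its group, 74.1 CPM against 63.8 to 68.2 CPM (ratio 0.567), with 15.7% of its reads outside exons. The part of the library measures in the gene levels was not tested.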

How the results depend on the processing

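No result past an FDR of 0.05 was found for the 10 genes in the genotype or *Fkbp5* fits under any alternative run, the lowest FDR being 0.28 (*Hif3a*) and 0.0687 (*Nr3c2*). *Tgm2* passed with DESeq2 (FDR 0.0449) and with no other tool. The count of the 10 at an unadjusted genotype p under 0.05, 2 in the fit reported, was 1 with the second lane alone and within either lane pair, and 1 to 4 leaving out each mouse (1 without B6 mouse 3, 6 or 8 or B6.D2 congenic mouse 8, and 4 without B6.D2 congenic mouse 3). Genes of the table at that level, 1559 of 15589, were 1382 of 14811 with the second lane alone. They were 500 of 15642 within lanes 5 and 6 and 1407 of 15619 within lanes 7 and 8. Leaving out each mouse gave 1107 to 2087, with 1481 of 15644 without B6.D2 congenic mouse 3. The 1 gene at an FDR under 0.05 became 25 with DESeq2, 20 with the likelihood ratio test, 2 with lane pair as a covariate, 0 within either lane pair, 1 to 4 leaving out each mouse (4 without B6.D2 congenic mouse 1), and 7 without both libraries that stand apart (6 with lane pair as well). Pathway genes at an unadjusted p under 0.05, 4 of 63, were 7 with the second lane alone, beside 1382 of all 14811 genes. They were 2 within lanes 5 and 6, beside 500 of 15642, and 8 within lanes 7 and 8, beside 1407 of 15619. Without both libraries they were 7, beside 1990 of 15601. Leaving out each mouse gave 3 to 10, the 10 without B6.D2 congenic mouse 1 (beside 2087 of 15624) and 7 without B6 mouse 5 (beside 1445 of 15647).

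The 4 genes with a slope on *Fkbp5* at an unadjusted p under 0.05 were 2 within lanes 7 and 8, beside 4495 of all 15618 genes. They were 0 without both libraries, beside 738 of 15600, and 0 with lane pair as well, beside 710 of 15600. Leaving out each mouse gave 2 to 4, the 2 without B6 mouse 8, beside 3195 of 15630. The 30 genes of the table at an FDR under 0.05 in the slope fit reported were 0 with upper-quartile normalization, the stricter filter, the second lane alone, lane pair as a covariate, either lane pair, or without both libraries (also with lane pair). They were 1 without a filter, 575 with DESeq2 and 304 with the likelihood ratio test. Leaving out each mouse gave 0 to 1973, the 1973 without B6.D2 congenic mouse 1. It gave 0 without B6 mouse 1, 2, 4 or 8 or B6.D2 congenic mouse 3, 4 or 8. Pairs at r of 0.5 or more, 9, were 5 without the 2 mice farthest from the median or without both libraries, and 5 to 11 leaving out each mouse. Pairs at r of -0.5 or less, 5, were 9 within either lane pair, 1 without the 2 farthest mice, 0 without both libraries, and 1 to 7 leaving out each mouse. In both counts the lowest came without B6.D2 congenic mouse 1. The count of the 10 genes with a lane pair difference, 0, was 1 without both libraries, beside 913 of all 15601 genes. Leaving out each mouse gave 0 to 1. It was 1 without B6 mouse 5 (beside 457 of 15647), B6.D2 congenic mouse 1 (beside 474 of 15624) or B6.D2 congenic mouse 4 (beside 446 of 15643).

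Signs turned for *Sgk1* within lanes 7 and 8 (-0.0113), for *Cdkn1a* within lanes 5 and 6 (0.0342), and for *Nr3c2* without both libraries (0.0033, and 0.0102 with lane pair). *Pdk4* turned without both libraries (0.0321, and 0.0149 with lane pair), and leaving out each mouse gave -0.0491 to 0.0201. *Sult1a1* turned with the second lane alone (-0.0162), within lanes 7 and 8 (-0.182) and without both libraries (-0.0705, and -0.0664 with lane pair), and leaving out each mouse gave -0.0567 to 0.113. Among pairs, the r of *Zbtb16* within lanes 7 and 8 was -0.574 with *Nr3c1*, -0.323 with *Nr3c2* and 0.376 with *Tsc22d3*. Leaving out each mouse gave -0.0219 to 0.892, -0.0755 to 0.93 and -0.803 to 0.0943 for these. *Tsc22d3* with *Zbtb16* was 0.165 without the 2 farthest mice and 0.0179 without both libraries. *Zbtb16* with *Hif3a* was -0.092 without centring and -0.288 within lanes 5 and 6. The causes of these changes were not tested.

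Mouse numbers recur in both genotypes but pair no animals by the labels, and the deviations of same-numbered mice correlated at -0.115 to 0.364, above 0.1 for 3 of 8 pairs, with 3 of 16 mice closest to their own number. With a block for mouse number, 2 of the 10 genes stayed at an unadjusted genotype p under 0.05, beside 1377 of all 15589 genes. In that fit 0 genes of the table were at an FDR under 0.05 for genotype. For the slope on *Fkbp5* with the block, 0 of the 9 genes were at an unadjusted p under 0.05, beside 1160 of 15588, and 0 genes were at an FDR under 0.05. Low levels limit *Zbtb16*, *Hif3a* and *Sult1a1*, for which as few as 107 to 113 reads were counted in a mouse.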
